A study of Mus musculus with 9 samples.

Results

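The genes described here encode the enzymes of glycolysis and of the pentose phosphate pathway, the transporters that bring glucose into the cell and carry lactate out, and a few regulators of this flux. A list of 37 such genes was taken, all 37 were found among the 23234 gene symbols of the deposited tables, and the 31 whose level averaged 1 FPKM or more over the 9 libraries are the members (FPKM is a fragment count scaled by transcript length and by the mapped fragments of the library). The other 6 genes were near the floor. Pfkm, the muscle phosphofructokinase, ran from 0.399 to 2.06 FPKM, Pfkfb1 from 0.0851 to 0.353 in Gr+ and from 0.566 to 1.01 in Gr- (the 2 sorted groups described next), Slc16a1, a lactate transporter, from 0.796 to 1.41 and from 0.313 to 0.763, Pdk4 from 0.103 to 0.521 and Eno2, the neuronal enolase, from 0.0177 to 0.46 over all libraries. Fbp1, an enzyme of gluconeogenesis, was listed at 0 in 7 of the 9 libraries and reached at most 0.0828 FPKM.

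RNA came from monocytes of the peripheral blood of C57BL/6 mice aged 8 months, sorted as Gr+CD11b+ (called Gr+ here, 4 libraries) or Gr-CD11b+ (Gr-, 5 libraries), with about 100000 cells in a library. Gr-1 is a surface epitope of the Ly6 family that separates inflammatory monocytes from patrolling ones. All mice carried Yaa, a Y-linked duplication that accelerates lupus-like disease, so no group lacks it. By genotype, the Gr+ libraries were 2 of Fcgr2-/-.Yaa (labelled CD32null) and 1 each of CD19Cre;Fcgr2 fl/fl.Yaa (CD19Cre) and CEBPaCre;Fcgr2 fl/fl.Yaa (CEBPaCre). The Gr- libraries were 1 each of CD32null, CD19Cre, CEBPaCre, CD11cCre;Fcgr2 fl/fl.Yaa (CD11cCre) and Fcgr2 fl/fl.Yaa without Cre (CD32Flox). Fcgr2 encodes the inhibitory Fc receptor CD32. The driver of the CD19Cre mice acts in B cells, so the receptor should be intact in monocytes of CD19Cre and CD32Flox mice, while the driver of the CEBPaCre mice acts in myeloid cells and the CD11c driver in part of the monocytes. The labels do not say whether libraries of 1 genotype came from the same mice, or whether blood was pooled, so p-values measure the spread between these libraries only.

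Several facts of the libraries touch the results. FPKM of Fcgr2b, the targeted gene, was 106 to 201 in the 3 libraries labelled CD32null and 75.0 to 195 in the 3 libraries labelled CD19Cre or CD32Flox. At the level of the whole gene this does not separate the genotypes, and which exons were read is not given, so groups below go by their labels. Depth relative to the library labelled CD32Flox, estimated from the step between the lowest FPKM values, was 0.71 to 2.66, and the absolute depth is unknown. The summed level of 6 classical monocyte markers was 2220 to 3587 FPKM in Gr+ and 59.4 to 138 in Gr-. Csf1r, set apart from the list after its values were seen, was at 389.8 to 681.5 in Gr+ and 468 to 1191 in Gr-, and with it the sums were 2649 to 4268 and 559.9 to 1321. The summed level of 7 nonclassical markers was 507.1 to 729.5 in Gr+ and 1678 to 3024 in Gr-. Markers of other cells were also read. The 16 neutrophil markers found summed to 878 to 2697 FPKM in Gr+ and 75.1 to 156 in Gr-, where Camp and Itgb2l were at 0 in every library (Ly6g is not a symbol of the tables). For 13 of the 16 every Gr+ library was above every Gr- library, while Retnlg, Cxcr2 (4.7 to 7.94 in Gr+ and 3.0 to 15.2 in Gr-) and Csf3r overlapped. The 13 NK cell markers summed to 1.97 to 7.75 in Gr+, where Ncr1 was at 0, and to 44.0 to 877 in Gr-, with the maximum in CD11cCre. The 8 erythroid markers summed to 296.3 to 2574 in Gr+ and to 500.7 to 3714 in Gr-. The lowest library was CD19Cre Gr+ and the highest CD32null Gr-. Lists for T cells, platelets, eosinophils and basophils, and dendritic cells each summed to at most 74.15. The part of these cells in the differences between subsets or genotypes was not tested. In bulk RNA, fewer cells of a type and less RNA per cell cannot be told apart.

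The members together held 0.673% to 1.03% of the summed FPKM of a library. Glycolysis splits glucose into pyruvate in a chain of steps, and most of these steps are served by several isoenzymes from separate genes. Pyruvate either enters the mitochondria, which pyruvate dehydrogenase kinases restrain, or is reduced to lactate, which leaves the cell through monocarboxylate transporters. The pentose phosphate pathway branches off at glucose 6-phosphate and makes NADPH and ribose. HIF-1, whose alpha subunit is encoded by Hif1a, is a transcription factor stabilised at low oxygen that induces many of these genes, and inflammatory myeloid cells are known to rely on glycolysis.

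The start-site regions of the 2 members that differed most between the subsets, Eno3 and Ldhb, are printed here beside that of Ldha, the main partner of Ldhb. Each is the 250 bases before the RefSeq start site (GRCm38.p6), 5′ to 3′ on the gene's strand, and capitals mark the core letters ACGTG or GCGTG, on either strand, to which HIF-1 binds. Eno3 lies on the plus strand at chr11:70656926-70657175, Ldhb on the minus strand at chr6:142507958-142508207 and Ldha on the plus strand at chr7:46845554-46845803.
Eno3: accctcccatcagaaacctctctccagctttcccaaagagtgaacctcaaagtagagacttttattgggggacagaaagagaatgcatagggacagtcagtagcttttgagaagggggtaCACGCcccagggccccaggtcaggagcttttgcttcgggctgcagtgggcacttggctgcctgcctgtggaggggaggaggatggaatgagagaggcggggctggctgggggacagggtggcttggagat
Ldhb: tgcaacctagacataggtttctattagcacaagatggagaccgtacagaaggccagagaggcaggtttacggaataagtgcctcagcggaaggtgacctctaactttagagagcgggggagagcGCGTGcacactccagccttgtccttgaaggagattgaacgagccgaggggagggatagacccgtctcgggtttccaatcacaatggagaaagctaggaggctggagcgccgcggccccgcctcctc
Ldha: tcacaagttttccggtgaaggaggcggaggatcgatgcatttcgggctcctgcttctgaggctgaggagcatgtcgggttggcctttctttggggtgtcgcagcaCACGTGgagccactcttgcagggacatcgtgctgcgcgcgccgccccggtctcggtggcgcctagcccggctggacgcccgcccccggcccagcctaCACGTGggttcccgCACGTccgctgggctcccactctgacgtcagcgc
These letters stood at 1 place in the Eno3 window, at 1 in the Ldhb window and in 3 runs in the Ldha window. A window was found for 30 of the 31 members (none was listed for Slc2a3), and 25 of these (83.3%) held the core, against 44.8% of 16527 windows of the same length. The longer letters CACGTG, which contain ACGTG, were in 4 of the 30 member windows and in 6.8% of all. Member windows had a median of 60.4% G and C, against 56.0% over all. The 16527 windows were not limited to genes that averaged 1 FPKM or more, as the members were, so the 2 sets are unlike. For 26 of the 30, and 2 of the 3 printed here, the bases after the start lay in a GENCODE transcript on the same strand. A match is a description of the letters and not of a bound site, and the core was present both in genes higher in Gr+ and in genes higher in Gr-.

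Between the subsets, 7 of the 31 members changed. Eno3, the beta or muscle enolase, was 12.7-fold lower in Gr+ than in Gr-, and Ldhb, the heart-type subunit of lactate dehydrogenase, was 5.3-fold higher in Gr+. Pgk1 (phosphoglycerate kinase), Pdk3 (a pyruvate dehydrogenase kinase) and Hif1a were also higher in Gr+, and Pfkfb3 and Slc16a3, the inducible regulator of phosphofructokinase and the main lactate exporter, were also higher in Gr-. The test was limma on log2(FPKM + 1) with no covariate, with p-values adjusted by Benjamini-Hochberg over 10436 genes, and a change is called at or under 0.05. The 4 members higher in Gr+ stand beside 8.84% of all genes tested and the 3 higher in Gr- beside 5.95%. In either direction, 22.6% of members and 14.8% of all genes were called. Libraries of the subsets did not overlap for 8 members, 5 higher in Gr+ and 3 higher in Gr-, against 16.5% of all genes. The median log2 difference, Gr+ minus Gr-, was 0.20 over the members and 0.09 over all genes tested. With genotype as a replicate block, limma called 11 of 31 members, the 7 above with Hk2, Hk3, Eno1 and Pgd, against 26.0% of all genes. Scaling to a common total, with the filter applied to the scaled values (11397 genes and 34 of the 37 listed genes tested), gave a median of -0.06 over all genes and calls of 914 higher in Gr+ and 1067 in Gr-, against 923 and 621. Of the 7, only Eno3 and Ldhb passed when each library in turn was left out. Without CD32null Gr+ replicate 2, 2 of 31 members were called, a smaller share than of all genes.

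**Figure D1:**
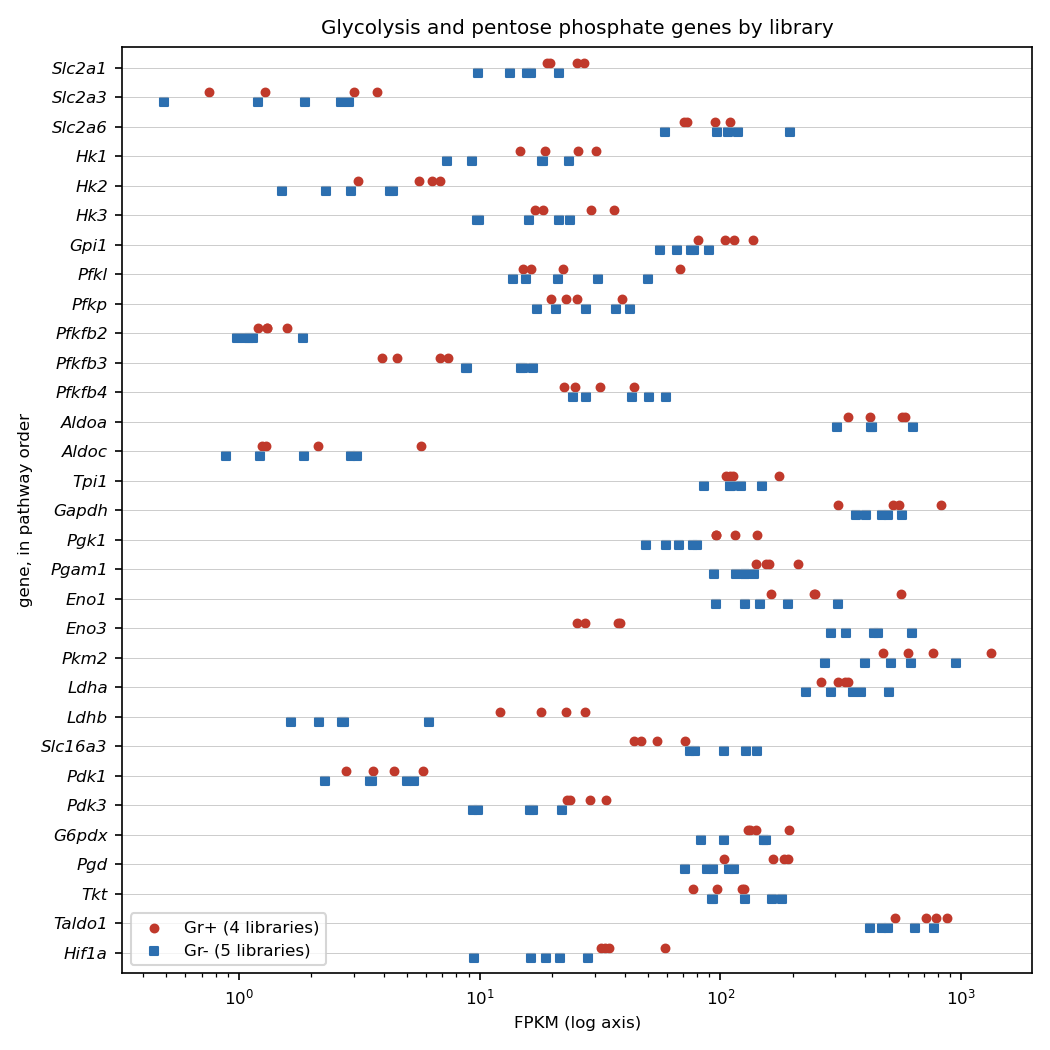
FPKM of the 31 members in each library, on a log axis, with genes in pathway order from glucose uptake to Hif1a. Each point is 1 library (circles, Gr+; squares, Gr-). The points of Eno3, at 25.3 to 38.3 in Gr+ and 288.9 to 625 in Gr-, lie farthest apart, and those of Ldhb are also apart; most other genes overlap.

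Glucose enters through transporters of the Slc2a family. By FPKM, which allows for length, Slc2a6 was the most abundant of the 3 measured, at 86.8 ± 18.6 in Gr+ (SD, n = 4) and 115 ± 49.9 in Gr- (SD, n = 5). It is a transporter that rises in activated macrophages. Slc2a1, the widely expressed glucose transporter, was at 22.8 ± 4.01 FPKM in Gr+ (n = 4) and 15.3 ± 4.19 in Gr- (n = 5), with a log2 difference of 0.57 ± 0.23 (SE) and a limma adjusted p of 0.134. Slc2a3 was low, from 0.488 to 3.75 FPKM. As a share of the summed FPKM of the 3 transporters, Slc2a6 took 72.9% to 80.7% in Gr+ and 80.9% to 89.7% in Gr-, so the ranges came close without crossing. The mean share was 77.5 ± 3.28% (n = 4) against 86.3 ± 3.50% (n = 5), with an exact two-sided permutation p of 0.0159, the smallest that 126 assignments allow, and 0.0444 after adjustment over the 14 shares computed.

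The hexokinases, which trap glucose as glucose 6-phosphate, did not pass the test with no covariate over all 9 libraries. Hk3 and Hk1 were the major forms, at 25.1 ± 9.09 and 22.4 ± 6.97 FPKM in Gr+ (n = 4) and 16.2 ± 6.40 and 15.3 ± 6.78 in Gr- (n = 5). Hk2, the inducible form, was at 5.48 ± 1.66 FPKM in Gr+ (n = 4) and 3.06 ± 1.23 in Gr- (n = 5), with a log2 difference of 0.69 ± 0.28 and a limma adjusted p of 0.132. With genotype as a replicate block, Hk2 and Hk3 were higher in Gr+, by 0.71 and 0.73 on the log2 scale with limma adjusted p of 0.0118 and 0.00623. With no block, Hk2 also passed when the CD19Cre Gr+ library was left out, at a log2 difference of 0.893. The shares of the 3 forms overlapped between the subsets, with Hk2 at 4.80% to 16.7% in Gr+ and 3.09% to 19.9% in Gr-. Gpi1, the isomerase of the next step, was at 109 ± 23.4 FPKM in Gr+ (n = 4) and 72.9 ± 12.4 in Gr- (n = 5), with a limma adjusted p of 0.115.

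Phosphofructokinase, the main controlled step, was read from the liver and platelet genes Pfkl and Pfkp in similar amounts. Pfkp took 36.4% to 60.9% of their sum in Gr+ and 45.8% to 57.2% in Gr-. The PFKFB enzymes set the level of fructose 2,6-bisphosphate, the activator of phosphofructokinase. Pfkfb3 was at 7.37 FPKM in CD19Cre, 4.53 and 3.94 in the CD32null replicates and 6.82 in CEBPaCre among Gr+, and at 14.9 in CD11cCre, 15.2 in CD19Cre, 8.74 in CD32Flox, 8.88 in CD32null and 16.7 in CEBPaCre among Gr-. Every Gr- library was above every Gr+ library, and in Gr- the CD32Flox and CD32null libraries were the lower ones. The log2 difference was -1.05 ± 0.26, with a limma adjusted p of 0.018, which became 0.0577 at most when a library was left out. That call ended without either of the CD32null Gr+ libraries. Pfkfb4, the more abundant form, was at 30.6 ± 9.53 FPKM in Gr+ (n = 4) and 40.9 ± 14.8 in Gr- (n = 5), with a log2 difference of -0.37 ± 0.30 and a limma adjusted p of 0.481. Pfkfb2 stayed between 0.982 and 1.84 FPKM. Within the family, the mean share of Pfkfb3 was 15.1 ± 2.53% in Gr+ (n = 4) and 23.8 ± 3.03% in Gr- (n = 5), and that of Pfkfb4 was 81.0 ± 2.71% and 73.8 ± 2.998%. Both shares had an exact permutation p of 0.0159 and an adjusted p of 0.0444. As Pfkfb2 took only 1.72% to 5.20%, these shares are near complements and not separate results. Every share called stood at the smallest p that the assignments allow, so its adjusted p rests on counting both.

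Aldolase was almost all Aldoa, which was at 476 ± 119 FPKM in Gr+ (n = 4) and 442 ± 118 in Gr- (n = 5). Aldoc, the brain form, took 0.288% to 0.993% of the sum. Of the lower steps with 1 gene each, Tpi1 (triose phosphate isomerase) and Gapdh had log2 differences of 0.11 ± 0.23 and 0.20 ± 0.28, with limma adjusted p of 0.80 and 0.714. Gapdh is uncertain because Gm12070, 99.9% identical over 1002 bases, was listed at 109 to 288 FPKM and could hold part of its reads. The sum of Gapdh, Gm12070 and Gm5069 gave a log2 difference of 0.19 ± 0.28. Pgk1, which makes the first ATP of the pathway, was at 115 FPKM in CD19Cre, 142 and 96.2 in the CD32null replicates and 95.6 in CEBPaCre among Gr+. Among Gr- it was at 80.0 in CD11cCre, 76.7 in CD19Cre, 49.0 in CD32Flox, 59.3 in CD32null and 67.1 in CEBPaCre. The lowest Gr+ value was above the highest Gr- value. Its log2 difference was 0.75 ± 0.21, with a limma adjusted p of 0.0375. This call was lost in 7 of 9 fits that each left out 1 library, with an adjusted p of up to 0.118. Those 7 left out any of the 4 Gr+ libraries or CD32Flox, CD32null or CEBPaCre of Gr-. Pgam1, the mutase that follows, also did not overlap, at 141.1 to 209 FPKM in Gr+ and 93.8 to 138 in Gr-, but its log2 difference of 0.46 ± 0.20 had a limma adjusted p of 0.165.

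Enolase showed the widest separation of the pathway. Eno3 was at 37.4 FPKM in CD19Cre, 38.3 and 25.3 in the CD32null replicates and 27.3 in CEBPaCre among Gr+. Among Gr- it was at 453 in CD11cCre, 625 in CD19Cre, 333 in CD32Flox, 289 in CD32null and 432 in CEBPaCre. The lowest Gr- library was far above the highest Gr+ library, and the order of genotypes differed between the subsets. The log2 difference, Gr+ minus Gr-, was -3.66 ± 0.26, with a limma adjusted p of 1.04e-05, and over 21 alternative fits the adjusted p ran from 2.8e-06 to 0.000307. Eno3 had been seen to differ between these libraries before the list was made, so its direction is not independent evidence. Eno1, the common alpha enolase, was at 560 FPKM in CD19Cre, 248 and 162 in the CD32null replicates and 245 in CEBPaCre among Gr+. Among Gr- it was at 191 in CD11cCre, 308 in CD19Cre, 95.5 in CD32Flox, 126 in CD32null and 146 in CEBPaCre. These ranges overlapped, and the log2 difference was 0.77 ± 0.40 with a limma adjusted p of 0.25, or 0.0297 with genotype as a replicate block.

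The level of Eno1 is uncertain. Gm5506, a copy 99.5% identical to Eno1 over 1736 bases, was listed at 218 to 1194 FPKM, with a mean of 539 against 231 for Eno1, so reads may be divided between them. Shares were therefore computed both ways. Of Eno1 and Eno3 alone, Eno3 made up 10.8 ± 3.43% in Gr+ (SD, n = 4) and 71.9 ± 4.28% in Gr- (SD, n = 5). With Gm5506 added to Eno1, Eno3 made up 3.48 ± 1.13% in Gr+ (n = 4), from 2.09% to 4.71%, and 43.6 ± 5.94% in Gr- (n = 5), from 35.9% to 51.5%. Each way the libraries did not overlap, with an exact permutation p of 0.0159 (0.0444 adjusted over the 14 shares for the first). The summed enolase FPKM, Gm5506 included, was 1026 ± 520 in Gr+ (n = 4) and 1017 ± 440 in Gr- (n = 5), with wide overlap. Without Gm5506 the sum was 187.4 to 597.6 in Gr+ and 415.1 to 932.9 in Gr-. The isoforms thus differed each way, while how near the sums were depended on whether Gm5506 was counted.

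**Figure D2:**
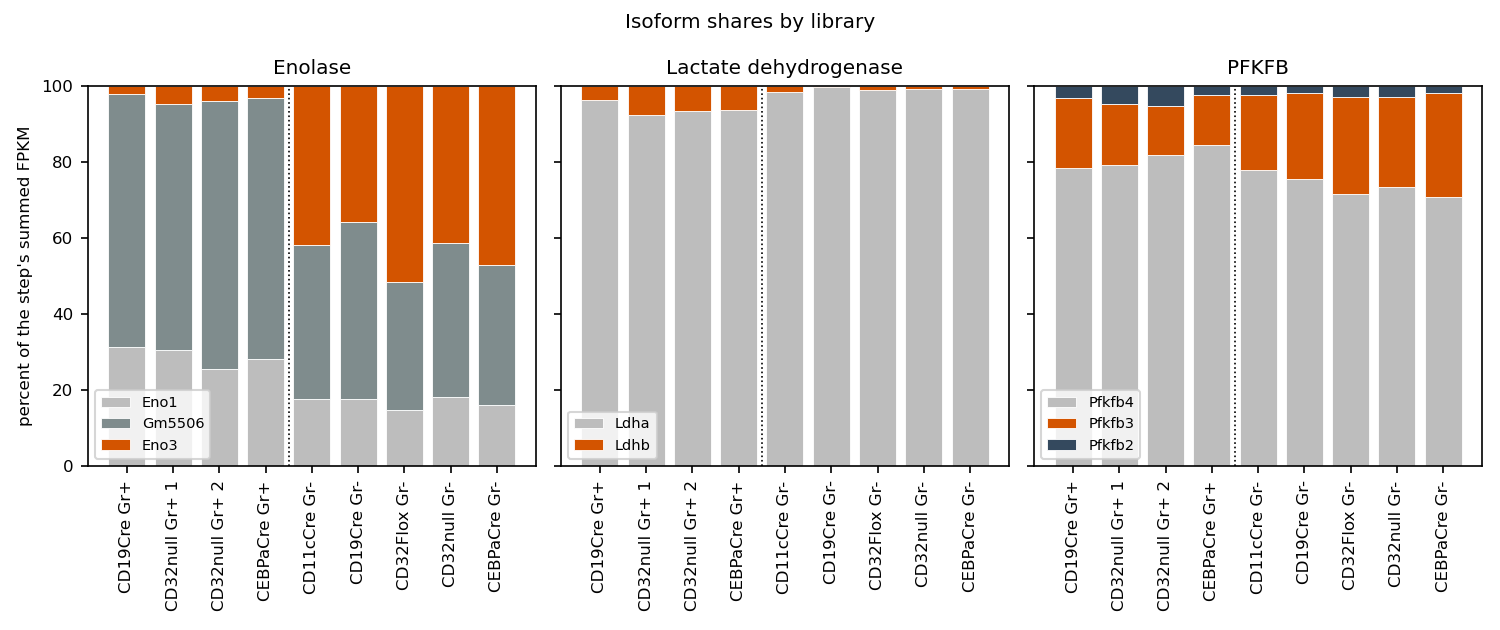
Share of each isoform in the summed FPKM of its step, by library, for enolase (with Gm5506, the near-identical copy of Eno1), lactate dehydrogenase and PFKFB. The 4 bars left of the dotted line are Gr+ libraries and the 5 to its right are Gr-. Eno3 takes 2.09% to 4.71% in Gr+ and 35.9% to 51.5% in Gr-, and Ldhb 3.78% to 7.71% and 0.329% to 1.58%.

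Pyruvate kinase, the last ATP-making step, was read from Pkm2 (now Pkm). It was at 790 ± 375 FPKM in Gr+ (n = 4) and 549 ± 258 in Gr- (n = 5), with a log2 difference of 0.54 ± 0.39 and a limma adjusted p of 0.424. The gene-level value does not separate its splice forms.

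Lactate dehydrogenase is a tetramer of LDHA, the form of lactate-making tissues, and LDHB, the form of lactate-using ones. Ldha was at 309 ± 34.4 FPKM in Gr+ (n = 4) and 350 ± 103 in Gr- (n = 5), with a log2 difference of -0.14 ± 0.25 and a limma adjusted p of 0.779. Ldhb was at 12.1 FPKM in CD19Cre, 27.5 and 18.0 in the CD32null replicates and 22.8 in CEBPaCre among Gr+. Among Gr- it was at 6.13 in CD11cCre, 1.65 in CD19Cre, 2.68 in CD32Flox, 2.16 in CD32null and 2.73 in CEBPaCre. The subsets did not overlap, and CD19Cre was the lowest library of each. The log2 difference was 2.41 ± 0.31, with a limma adjusted p of 0.00038, and from 0.000163 to 0.002 over 21 alternative fits. Without CD11cCre, the library with the most NK cell RNA, the Gr- level was 2.30 ± 0.509 FPKM (n = 4), against 3.07 ± 1.77 with it (n = 5). The share of Ldhb was 6.07 ± 1.65% in Gr+ (n = 4) and 0.917 ± 0.474% in Gr- (n = 5), with an exact permutation p of 0.0159 and an adjusted p of 0.0444. Ldhb was thus at most 7.71% of the pair in any library.

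Slc16a3 (MCT4), which exports lactate, went the other way. It was at 43.6 FPKM in CD19Cre, 71.0 and 54.4 in the CD32null replicates and 46.8 in CEBPaCre among Gr+, and at 104 in CD11cCre, 142 in CD19Cre, 74.9 in CD32Flox, 78.7 in CD32null and 128 in CEBPaCre among Gr-. The ranges came close, at 71.0 and 74.9 FPKM, without crossing. The log2 difference was -0.93 ± 0.25, with a limma adjusted p of 0.0273, and the call was lost in 5 of 9 fits without 1 library, with an adjusted p of up to 0.0856 over all alternatives. Those 5 left out CD19Cre, CD32null replicate 2 or CEBPaCre of Gr+, or CD11cCre or CEBPaCre of Gr-. Of the kinases that hold pyruvate back from the mitochondria, Pdk3 was at 28.6 FPKM in CD19Cre, 23.7 and 23.1 in the CD32null replicates and 33.5 in CEBPaCre among Gr+. Among Gr- it was at 16.7 in CD11cCre, 22.0 in CD19Cre, 9.87 in CD32Flox, 9.41 in CD32null and 16.2 in CEBPaCre. The highest Gr- library was just under the lowest Gr+ library. Its log2 difference was 0.88 ± 0.26, with a limma adjusted p of 0.0429, which passed in 1 of 9 fits without 1 library (that without CD19Cre Gr-) and reached 0.129; with no filter on the mean it was 0.0668. Pdk1 was at 2.28 to 5.84 FPKM over all libraries, with a log2 difference of 0.07 ± 0.24.

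The pentose phosphate genes were abundant. With no covariate and all 9 libraries, 0 of 4 passed the limma test, and 1 had an unadjusted p under 0.05. Taldo1 (transaldolase) was the highest, at 728 ± 145 FPKM in Gr+ (n = 4) and 559 ± 143 in Gr- (n = 5). Pgd, the second enzyme to make NADPH, was at 161 ± 39.5 in Gr+ (n = 4) and 95 ± 16.97 in Gr- (n = 5), with a log2 difference of 0.74 ± 0.24 and a limma adjusted p of 0.0616, or 0.0297 with genotype as a replicate block. With no block, Pgd also passed without CD19Cre Gr+ (log2 difference 0.933) and without both CD19Cre libraries (0.911). G6pdx, which opens the pathway, and Tkt (transketolase) had log2 differences of 0.23 ± 0.24 and -0.28 ± 0.26, with adjusted p of 0.604 and 0.549.

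Hif1a was at 58.6 FPKM in CD19Cre, 34.5 and 31.9 in the CD32null replicates and 33.3 in CEBPaCre among Gr+. Among Gr- it was at 21.5 in CD11cCre, 28.3 in CD19Cre, 9.47 in CD32Flox, 16.3 in CD32null and 18.9 in CEBPaCre. Every Gr+ library was above every Gr- library, and CD19Cre was the highest of each subset. The log2 difference was 1.06 ± 0.30, with a limma adjusted p of 0.0364, which passed in 1 of 9 fits without 1 library (that without CD19Cre Gr-) and reached 0.0837; with no filter on the mean it was 0.0611.

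**Figure D3:**
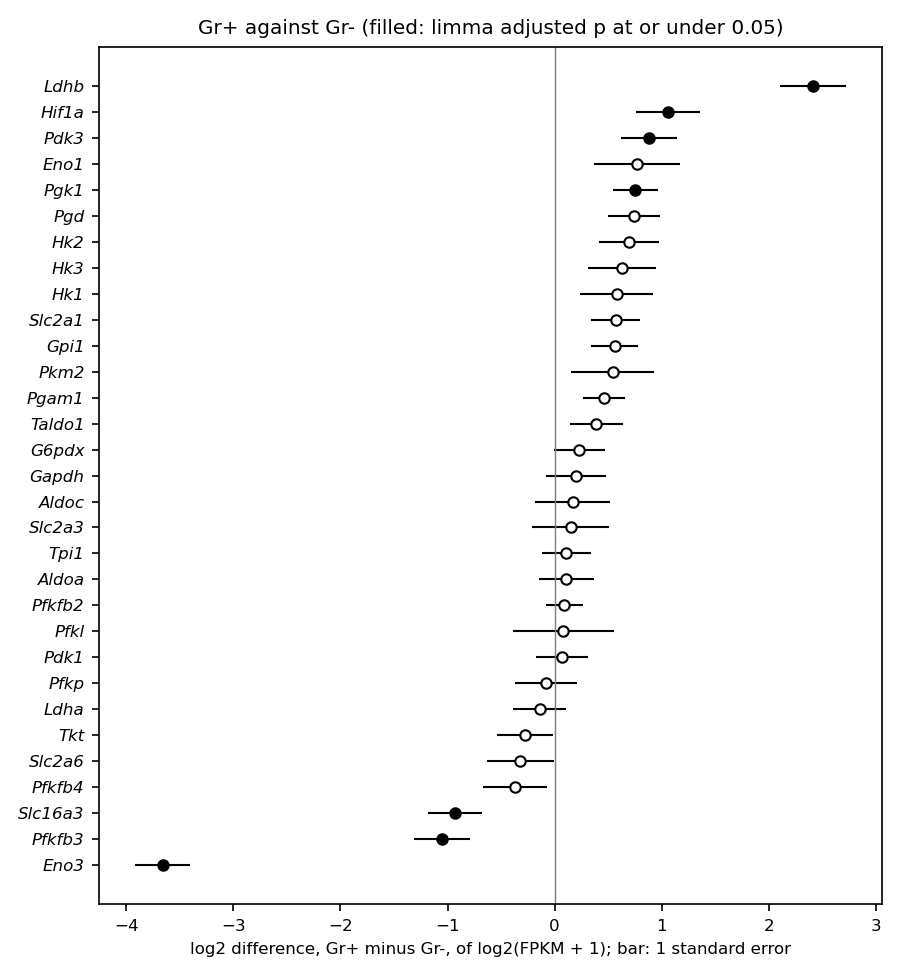
Log2 difference of each member, Gr+ minus Gr-, on log2(FPKM + 1), with 1 standard error, sorted by size. Filled points passed the limma test at an adjusted p at or under 0.05; Eno3 at -3.66 and Ldhb at 2.41 stand at the ends, and 27 of 31 members lie within 1.

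Of 96 other genes of sugar and pyruvate metabolism and its regulation, 61 passed the filter on low values. The limma test called 7 higher in Gr+ and 1 higher in Gr-, beside the 8.84% and 5.95% of all genes given above, and with genotype as a replicate block 13 and 2. Ndrg1, a gene induced by low oxygen, was at 46.4 ± 21.7 FPKM in Gr+ (n = 4) and 4.02 ± 1.98 in Gr- (n = 5), a log2 difference of 3.16 ± 0.42. Bnip3, a mitophagy receptor and HIF-1 target, had a log2 difference of 1.64 ± 0.28, and Arrdc4, an arrestin-like inhibitor of glucose uptake, one of 2.02 ± 0.34. Brp44l (now Mpc1), a subunit of the mitochondrial pyruvate carrier, was at 169 ± 37.2 FPKM in Gr+ (n = 4) and 48.2 ± 17.9 in Gr- (n = 5). Rbks (ribokinase), which feeds ribose into the pentose phosphate pathway, had a log2 difference of 1.16 ± 0.22. The 1 gene in the other direction was Ddit4 (REDD1), an inhibitor of mTORC1 and also a HIF-1 target, at 3.33 ± 1.78 FPKM in Gr+ (n = 4) and 21.1 ± 8.31 in Gr- (n = 5), a log2 difference of -2.37 ± 0.34. Limma adjusted p for these 6 ran from 0.000495 for Ndrg1 to 0.00397 for Rbks, and up to 0.0167 over the alternatives. Of the 20 tested regulators linked to HIF-1 or glucose sensing, 3 were higher in Gr+, 1 was higher in Gr- and 16 did not pass.

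By genotype, the libraries taken as deleted in monocytes (CD32null and CEBPaCre, 5 libraries) were set against those taken as intact (CD19Cre and CD32Flox, 3 libraries). The subset was a covariate and CD11cCre was left out. This grouping was inferred from the genotype labels and the Cre drivers, and no label states it. None of the 31 members was called by limma, as none of 10429 genes was (0.0%). At an unadjusted p under 0.05 there were 3 members and 1470 genes. These 3 were Gapdh (log2 difference, deleted minus intact, 0.70 ± 0.26), Pgd (0.53 ± 0.22) and Pfkl (-1.10 ± 0.45), and the smallest adjusted p of a member was 0.308. The median difference was -0.15 over the members and -0.04 over all genes.

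That result turned on 1 library. The intact libraries did not resemble each other. CD32Flox was the lowest of the 5 Gr- libraries for 24 of 31 members, against 47.9% of all genes, and the highest for none. The median FPKM over all genes tested was 7.71 in CD32Flox and 8.64 to 10.7 in the other Gr- libraries, and its part in this was not tested. CD19Cre was the highest of Gr- for 18 of 31, against 40.2% of all genes, and the highest of Gr+ for 12 of 31, against 43.9%. Without CD32Flox, so that only CD19Cre stood for the intact state, limma called 2551 of 10415 genes (24.5%) and 7 of 31 members. Of these, 6 were lower in the deleted libraries than in CD19Cre, with Pfkl at a log2 difference of -1.67 ± 0.23 (adjusted p 0.00863), Eno1 at -1.28 ± 0.23 (0.0102), Pkm2 at -1.11 ± 0.25 (0.0172) and Hif1a at -0.73 ± 0.16 (0.0172). The other 2 that were lower were Aldoc at -1.04 ± 0.25 and Pfkp at -0.78 ± 0.19. Hk2 was higher in the deleted libraries, at 0.84 ± 0.19 (adjusted p 0.0192). The 2 CD19Cre libraries, 1 of each subset, were fitted as independent, though their deviations from the subset means correlated at 0.56. The limma adjusted p of that fit may therefore be too small. Without both CD19Cre libraries, the intact state was the single library CD32Flox, assumed to vary like the other groups. No member was then called, and each of these 7 genes, which the fit without CD32Flox had picked out, took the opposite sign, for example 0.384 for Pfkl and 0.736 for Pkm2. That fit shifted upward as a whole, with a median of 0.231 over all genes and 0.422 over the members, 27 of 31 of which were higher in the deleted libraries. In the fit without CD32Flox, deletion and the CD19Cre genotype cannot be told apart. Nor can traits of the CD19Cre libraries, which had the most gene symbols at 0 FPKM in each subset. These were 10140 in Gr+, against 5693 to 9482 in the other Gr+ libraries. In Gr- they were 8827, against 5123 to 8401.

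**Figure D4:**
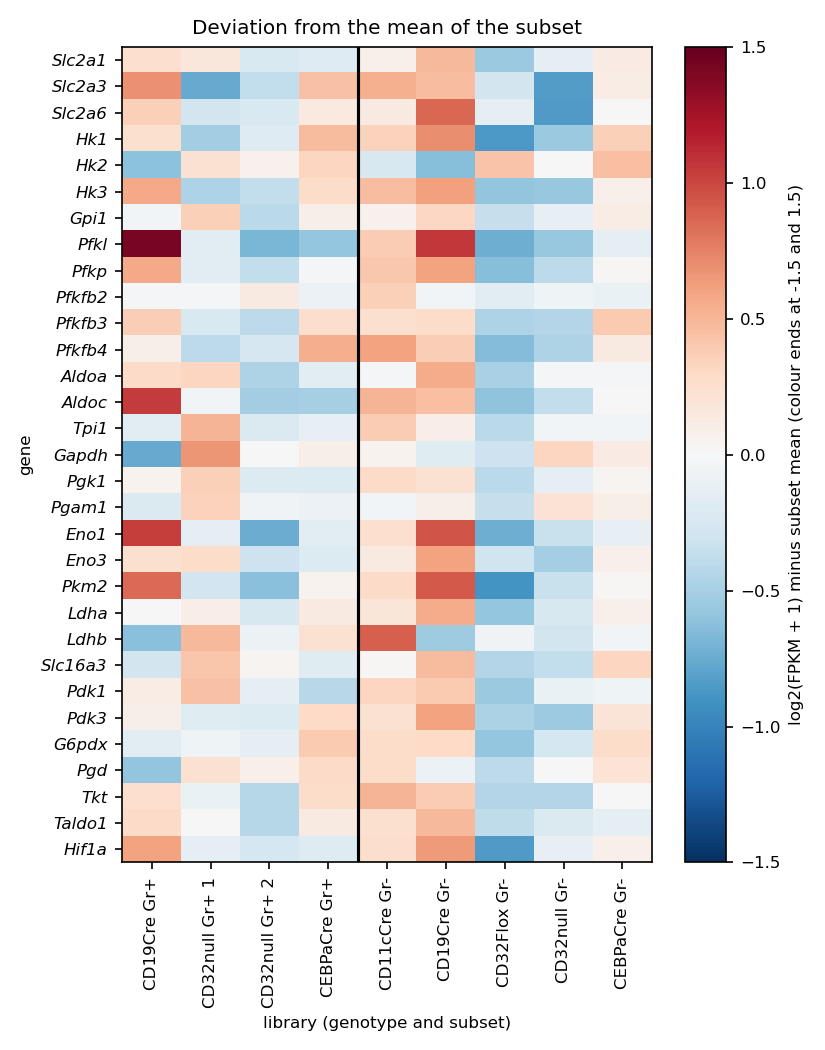
Log2(FPKM + 1) of each member minus the mean of its subset, by library, with Gr+ left of the line and Gr- right of it; red is above the subset mean and blue below. CD19Cre is red for Pfkl, Eno1 and Pkm2 in both subsets, and CD32Flox is blue for most genes.

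Pfkl shows the pattern best. It was at 68.2 FPKM in CD19Cre Gr+ against 15.1 to 22.2 in the other 3 Gr+ libraries, and at 49.99 in CD19Cre Gr-, 30.9 in CD11cCre, 21.2 in CEBPaCre, 15.5 in CD32null and 13.7 in CD32Flox. Pkm2 was at 1324 FPKM in CD19Cre Gr+ against 474 to 760.2 in the other Gr+ libraries, and at 949.9 in CD19Cre Gr- against 270.4 to 616 in the other Gr- libraries. Hk2 ran opposite, with CD19Cre lowest in each subset, at 3.11 FPKM in Gr+ and 1.51 in Gr-. Gapdh also had CD19Cre lowest in Gr+, at 308 FPKM against 522 to 822, and in Gr- it was at 401 against 365 to 566. The glycolytic genes thus did not move as a block with CD19Cre.

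Whether the difference between subsets itself differed with the genotype was tested with the product of subset and deletion in the same 8 libraries. Limma called 9 of 10429 genes (0.0863%) and none of the 31 members. No member had an unadjusted p under 0.05, against 339 genes, and the smallest adjusted p of a member was 0.882. The standard error of a member's interaction was 0.36 to 0.87 on the log2 scale, so only large interactions could be seen with these libraries. For Eno3 the interaction was 0.05 ± 0.62 and for Ldhb 0.70 ± 0.47.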

How the data were processed

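RNA of 9 libraries was made into cDNA with the SMART-Seq v4 kit, per the labels' protocols. The authors deposited 1 FPKM value per gene symbol and library, made with TopHat2 2.0.8 and Cufflinks 2.1.1 on mm9, per the submitters' processing notes; annotation and settings are not given in the sources used here. No counts were recovered, so counting errors are not given. The tests used limma 3.58.1 (R 4.3.3) on log2(FPKM + 1), keeping genes that averaged 1 FPKM or more and were above 0 in at least 2 fitted libraries. Folds are ratios on that scale and understate changes of low genes. Genotype served as the replicate block in alternative fits. Between subsets, deviations from the subset means correlated at 0.56 within CD19Cre, 0.22 and 0.13 within CD32null and 0.15 within CEBPaCre. Pairs of unlike genotype were at -0.34 to 0.21, so only the CD19Cre pair stood well apart. CD32null Gr+ replicate 2 correlated at 0.21 with CD32Flox Gr-. Whether mice were shared is not stated, so the pairing comes from the genotype labels. Isoform shares were compared by exact permutation of libraries. The fit of the subset comparison was run on simulated data first. Libraries were independent there, so the run does not cover libraries correlated by genotype, the deletion fits or the interaction. Near-identical copies were sought among GENCODE vM21 transcripts (at least 95% identity over 500 bases). Promoter windows are RefSeq's, 1 per gene, the one nearest a principal GENCODE start. The members and the gene lists were chosen with earlier results of these data known. The text names every member that averaged 1 FPKM or more, and of the other metabolic genes the 5 with the smallest p in each direction. The B cell markers are not reported here.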

Additional observations from a re-analysis of the deposited data

Results flagged for a closer look

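In 6 of 62 groups (31 members in each subset), 1 library lay apart from the rest, its gap to the next being more than 0.829 of the range among 4 libraries or 0.71 among 5. Chance gives about 1 in 20 such groups for normally distributed values. Over all genes tested, 7.93% of groups met the same limit on FPKM, against 9.68% for the members, and 81.0% of those libraries were high, as were all 6 here. In Gr+, the CD19Cre library was high for Pfkl (68.2 FPKM, others 15.1 to 22.2) and for Hif1a (58.6, others 31.9 to 34.5). CD32null replicate 1 was high for Tpi1 (174 FPKM, others 105 to 113), and it was the shallowest library. CEBPaCre Gr+ was high for G6pdx (193 FPKM, others 130.2 to 140.1). In Gr-, CD11cCre was high for Ldhb (6.13 FPKM, others 1.65 to 2.73) and for Pfkfb2 (1.84, others 0.982 to 1.15); it also had the most NK cell RNA, whose part was not tested.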

How the results depend on the processing

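Eno3 and Ldhb passed under all 21 alternatives to the comparison of subsets. With genotype as a replicate block, 11 members and 2712 genes were called, and no member called without it was lost. The 7 libraries of the genotypes that hold both subsets gave 11 and 2760 with that block. Hk2 and Pgd were gained without CD19Cre Gr+, where Pgk1, Slc16a3, Pdk3 and Hif1a were lost. Pgd was also gained without both CD19Cre libraries, where Slc16a3 was lost. With no filter on the mean, Pdk3 and Hif1a were lost, and 3 of the 37 listed genes were higher in Gr+ and 4 in Gr-. After scaling to a common total, 4 of the 34 listed genes tested were higher in Gr+ and 4 in Gr-. Leaving out 1 library gave 2 to 7 members and 1128 to 1578 genes for the subsets. The 2 of 31 members came without CD32null Gr+ replicate 2, where 807 of 10424 genes were higher in Gr+ and 450 in Gr-. The members were called less often than all genes there. For deletion it gave 0 to 7 members and 0 to 2551 genes (5 genes without both CD19Cre), and for the interaction 0 members and 7 to 18 genes. The interaction called 5 genes with a pseudocount of 5, median scaling or quantile normalization, and could not be fitted without CD19Cre Gr+. Isoform shares called, with the near complements Pfkfb3 and Pfkfb4 both counted, fell from 5 to 0 without both CD19Cre libraries. The same fall came in each of 9 cases without 1 library (0 to 0), where fewer assignments keep the adjusted p above 0.05. The Eno3 difference in share stayed between -62.3 and -59.6 points and that of Ldhb between 4.61 and 5.92.

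Of the members that were not called, 9 changed sign between settings. Quantile normalization gave Pfkl -0.042, Aldoa -0.126 and Tpi1 -0.03, median scaling Pdk1 -0.012, and TPM scaling (chosen after seeing the data) Pfkl -0.075, Aldoa -0.05, Tpi1 -0.044 and Pdk1 -0.06. Without both CD19Cre libraries the differences were Pfkl -0.128, Aldoc -0.066 and Ldha 0.002, and with either replicate block Aldoa -0.028 and Pdk1 -0.024. Without 1 library the ranges were Slc2a3 -0.076 to 0.404, Pfkl -0.392 to 0.345, Pfkp -0.271 to 0.071, Aldoa -0.013 to 0.263, Aldoc -0.179 to 0.344, Tpi1 -0.054 to 0.21, Gapdh -0.025 to 0.447, Ldha -0.281 to 0.004 and Pdk1 -0.079 to 0.206. For deletion, leaving out both CD19Cre libraries gave Pfkl 0.384, Pfkp 0.448, Eno1 0.504, Pkm2 0.736, Aldoc 0.422, Hif1a 0.825 and Hk2 -0.195, and Hif1a ran from -0.734 to 0.082 without 1 library. The cause was not tested.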
